A study of Mus musculus with 24 samples.

Results

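Dendritic cells (DCs), the white blood cells that take up antigen and present it to T cells, were grown from mouse bone marrow with the cytokine GM-CSF. Polyadenylated RNA was compared between cultures that had spent a further 24 h with dimethyl sulfoxide (DMSO), the solvent of the study's test compound, and cultures taken at the start of that period (t0). The 6 libraries were chosen by title (DC105 GM_CSF, ending in DMSO or in t0), 3 in each group, out of 24 libraries in the series. The other GM-CSF groups helped to estimate the spread between replicates, so that the fit held 15 libraries in 5 groups. They also entered the filter on low counts and the scaling of the libraries. Marrow came from Cas9-EGFP or WT C57BL/6JRj mice, and which of the 2 genotypes gave each library is not stated; nor are age and sex. GM-CSF was used at 20 ng/ml, with feeding on day 3 and part of the medium renewed on day 6. One protocol places t0 on day 8 and another names day 9 as the usual day of use. Neither group received the test compound AZD5582. The labels do not say whether medium or GM-CSF was renewed for the last 24 h, and none of the libraries used here is a culture kept to that time without DMSO, so the effects of solvent and of a longer culture cannot be told apart. Replicates 1 to 3 share the title prefix DC105, whose meaning the labels do not give. They are not said to come from separate animals, so p-values measure the spread between these libraries, which may be technical.

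Marrow cultures in GM-CSF hold macrophage-like and DC-like cells, among them dividing precursors and cells at different stages of maturation. A maturing DC reduces antigen uptake, displays peptide on MHC molecules, raises co-stimulatory ligands such as CD40, turns on the lymph node homing receptor CCR7 and rebuilds its actin skeleton with fascin. Much of that programme is driven by NF-kB, a family of dimeric transcription factors. The canonical arm (RelA, c-Rel, p50) is freed when IkB proteins are destroyed. The non-canonical arm (RelB, p52) is freed when the kinase NIK triggers processing of the precursor encoded by Nfkb2. GM-CSF itself signals through JAK2 and STAT5, which switch on feedback inhibitors such as CISH and sustain division and survival.

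Gene counts totalled 54732784 to 62247676 per t0 library and 45268073 to 81007086 per DMSO library, of which DMSO replicate 3 was the smallest. That library also had the highest share of counts on mitochondrial genes, 4.79% against 2.08 to 3.49% in the other 5 libraries. Along the first principal component, with 77.1% of the variance, the 3 t0 libraries lay between -71.65 and -66.25 and the 3 DMSO libraries between 64.29 and 76.29. On the second, with 7.31%, DMSO replicate 3 (-40.84) stood apart from DMSO replicates 1 and 2 (25.38 and 18.56). Levels below are given in CPM after TMM scaling of the library totals; 3 counts correspond to 0.0351 to 0.0638 CPM on that scale in the 6 libraries, a limit that covers counting error only. Differences are log2(DMSO/t0) ± SE from edgeR's quasi-likelihood test, and a gene is said to rise or fall when its Benjamini-Hochberg adjusted p over all genes tested was below 0.05. A value in parentheses after a gene is that log2 difference. In such bulk RNA, fewer cells of a type and less RNA per cell cannot be told apart.

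Of 16152 genes tested, 7678 (47.5%) changed within the 24 h: 4398 rose (27.2%) and 3280 fell (20.3%). The shares of 27.2% and 20.3% are the background for every count of list members below. The lists were chosen with earlier results of these data known, so such counts describe the lists and are not independent tests. A change of at least 2-fold as well was met by 1950 rising (12.1%) and 1278 falling genes (7.91%). The CPM of the groups did not overlap for 9645 genes (59.7%). The split between directions depended on how libraries were scaled. Scaling by library totals alone moved the median log2 change over all genes from 0.087 to -0.077 and gave 3186 rising and 4534 falling genes. Calls and list directions that turn with that scaling are marked below. The 6 compared libraries alone gave 4057 rising and 3976 falling genes and a median of 0.021. With all 24 libraries in the fit 3226 genes rose and 1920 fell. Named genes that lost their call with all 24 are given with their paragraph. DMSO replicate 3 was the DMSO library farthest from t0 for 43.93% of the rising genes and 49.15% of the falling genes.

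**Figure D1:**
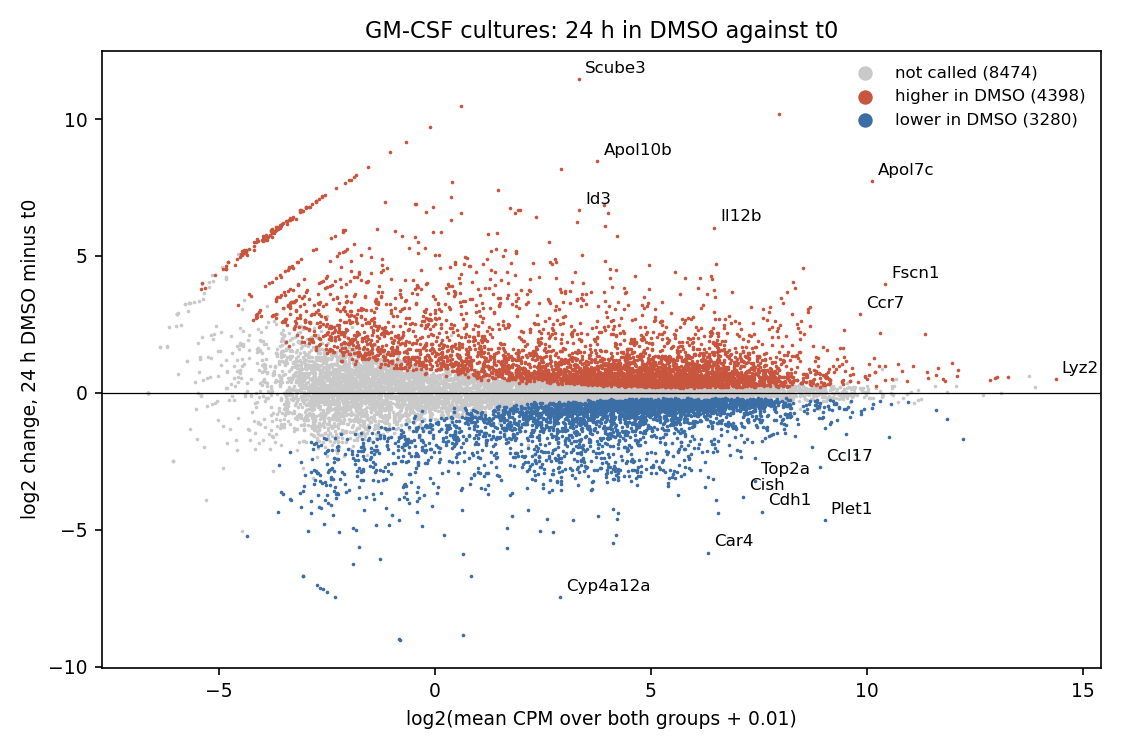
Log2 change from t0 to DMSO (y axis) against log2 mean CPM (x axis) for each of the 16152 genes tested, with rising genes, falling genes and genes that did not pass coloured apart. Diagonal rows of points at the left are genes with few or no counts at t0; 4398 genes rose and 3280 fell.

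The cultures carried the markers of their label at both times. Itgax, which encodes the integrin CD11c used to define DCs, was at 1083, 1061 and 1078 CPM at t0 and 410.1, 412 and 313 CPM in DMSO. It was thus abundant in all 6 libraries, and lower in every DMSO library (-1.50 ± 0.13, adjusted p = 2.16e-08). Zbtb46, a transcription factor of classical DCs, rose (1.22 ± 0.12), and the MHC class II chaperone Cd74 was at 8779 ± 536 CPM at t0 and 8778 ± 1074 CPM in DMSO (mean ± SD, n = 3) with no difference called. The summed level of 8 DC markers was 15120 to 16733 CPM at t0 and 13932 to 17600 CPM in DMSO, so the groups overlapped. Macrophage markers were present as well: 18 monocyte and macrophage markers summed to 19133 to 24437 CPM at t0 and 28068 to 33922 CPM in DMSO, without overlap, most of it from the lysozyme gene Lyz2. In this list 12 of 18 genes rose and 2 fell, beside 27.2% rising and 20.3% falling over all genes. The rises included Apoe (3.15), Cx3cr1 (4.03), Fcgr4 (1.56), Cd14 (1.40) and the growth factor receptor gene Csf1r (0.78). Mrc1 (-1.15) and Fcgr1 (-0.90) fell. Of 10 markers of cDC1, the cross-presenting DC lineage, Xcr1 was too low to test, Batf3 (1.86), Irf8 (2.15) and Snx22 (2.68) rose, and Itgae (-5.20), Wdfy4 (-1.46) and Naaa (-1.08) fell. Their sum went from 1302 to 1411 CPM at t0 to 1114 to 1242 CPM in DMSO. With all 24 libraries in the fit, 5 of the 18 monocyte and macrophage markers rose, and Csf1r, Fcgr1, Wdfy4, Naaa and Lyz2 lost their call. How far these shifts in other cells' markers contribute to the results below was not tested.

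Genes of DC maturation rose together. Of 30 genes that mark mature, migrating DCs, 29 rose and none fell. The cystatin gene Cst7 (-0.13) did not pass. These members, too, were chosen with earlier results of these data known, so the count is a description. Over all genes 27.2% rose. The median log2 change of the list was 3.08, against 0.087 over all genes. Ccr7, the receptor that guides DCs to lymph nodes, was at 204, 255 and 192 CPM at t0 and 1386, 1648 and 1764 CPM in DMSO. Every DMSO library lay above every t0 library (2.88 ± 0.14, adjusted p = 2.58e-11). Marcksl1, which binds actin and calmodulin, stood at 90.8, 97 and 83.9 CPM at t0 and 708, 719 and 689 CPM in DMSO and also separated the groups (2.96 ± 0.15). Fscn1, which encodes fascin, the bundler of actin in DC dendrites, was at 155, 178 and 158 CPM at t0 and 2139, 2833 and 2786 CPM in DMSO, so that it reached more than 2000 CPM in each DMSO library. Serpinb9, an inhibitor of granzyme B, was at 35.5 ± 3.64 CPM at t0 and 588 ± 129 CPM in DMSO (mean ± SD, n = 3; 4.05 ± 0.15). Further rises came from the solute carrier gene Slco5a1 (4.66), Zmynd15 (4.28), the anchoring filament gene Lad1 (4.18), the stress gene Gadd45b (3.68), the Rab GTPase-activating gene Tbc1d4 (3.47), the IL-12 signal transducer Stat4 (3.50) and the interleukin 15 receptor chain Il15ra (1.99). The smallest called rise in the list was Cd63 (0.49), a tetraspanin of endosomes. Socs2 (0.93), also a target of STAT5, rose as well. Only Cd63 (adjusted p = 0.07) and Clu lost their call with all 24 libraries, which left 27 rises.

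Co-stimulatory ligands did not move as one. Of 12 genes, 7 rose, 1 fell and 4 did not pass, beside 27.2% rising and 20.3% falling over all genes. Cd40, through which helper T cells license a DC, was at 8.56, 9.76 and 7.86 CPM at t0 and 47.3, 71.1 and 60.2 CPM in DMSO. The DMSO libraries were all higher, by 2.77 ± 0.14 (adjusted p = 3.39e-11). Cd83, which slows the removal of MHC class II and CD86 from the surface, was at 74.1, 77.9 and 68.1 CPM at t0 and 455, 504 and 657 CPM in DMSO, again without overlap (2.88 ± 0.13). In contrast to these, the CD28 ligand gene Cd80 was at 50.2, 44.4 and 48.8 CPM at t0 and 45.8, 48.9 and 48.8 CPM in DMSO, where the groups overlapped (0.00 ± 0.18, adjusted p = 0.998). Cd86, the other ligand of CD28, was at 87.4, 98.1 and 99 CPM at t0 and 109, 113 and 104 CPM in DMSO. Its DMSO libraries were all slightly higher, but the difference of 0.20 ± 0.13 did not pass (adjusted p = 0.24). Of the ligands of the TNF family, Cd70 (3.21) and the OX40 ligand gene Tnfsf4 (1.76) rose and the GITR ligand gene Tnfsf18 (-2.58) fell. The 4-1BB ligand gene Tnfsf9 (0.51) did not pass, but was called without DMSO replicate 3 (0.71). The ICOS ligand gene Icosl (1.40) and the adhesion genes Icam1 (1.38) and Slamf1 (1.02) completed the rises.

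Genes that restrain T cells rose in the same libraries: 10 of 17 rose, 2 fell and 5 did not pass. Over all genes 27.2% rose and 20.3% fell. The enzymes that consume tryptophan, Ido1 (3.19) and Ido2 (3.56), and the amino acid oxidase gene Il4i1 (3.06) were among the larger rises, as was Arg2 (3.17), a mitochondrial arginase. The cytosolic arginase gene Arg1 was at 103, 34.3 and 54.1 CPM at t0 and 101, 159 and 30.7 CPM in DMSO, a spread within each group that left no call. Ligands of inhibitory receptors rose too: Cd200 (2.11), Pvr (1.14), Tnfrsf14 (1.08), the PD-L1 gene Cd274 (0.84) and Vsir (0.57). The PD-L2 gene Pdcd1lg2 (0.24) did not pass, and Lgals9 (-0.74) and Tgfb1 (-0.37) fell. Calls for Lgals9, Tgfb1 and Vsir were lost with all 24 libraries.

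**Figure D2:**
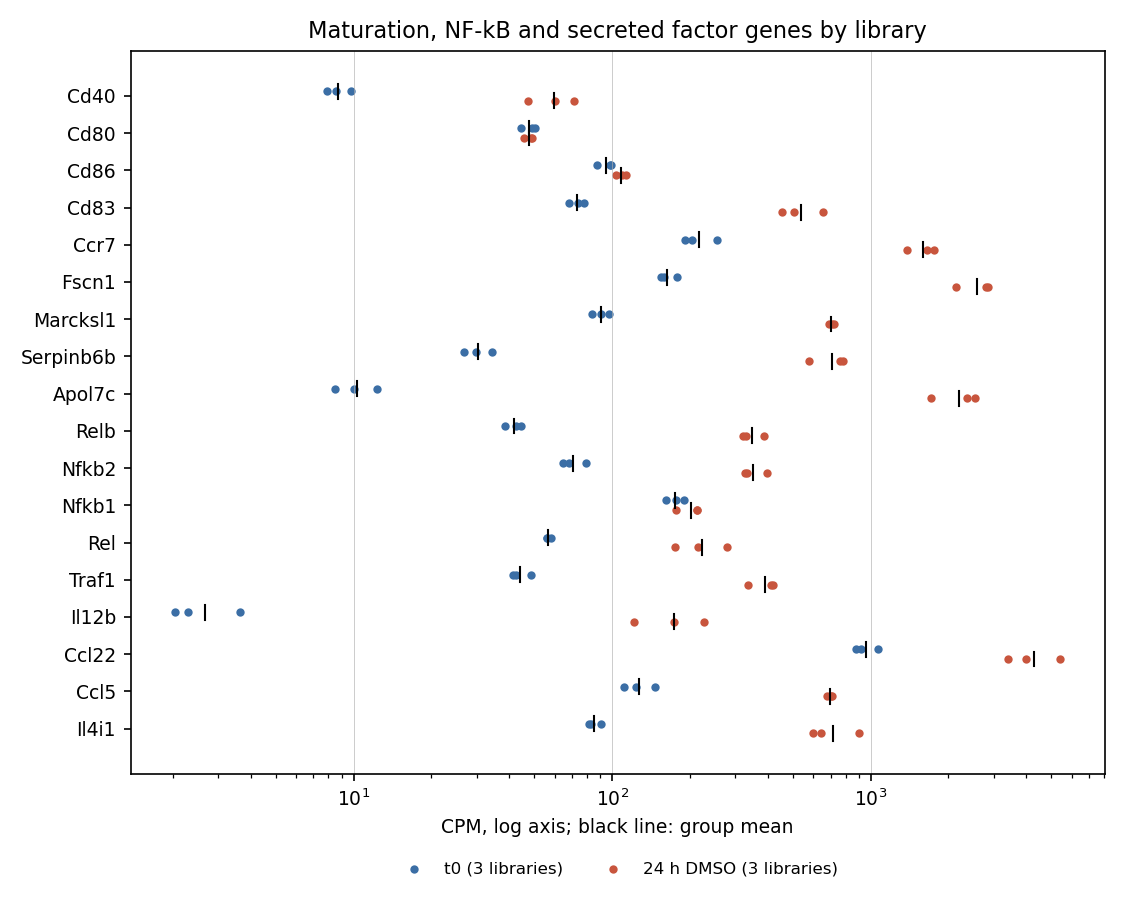
TMM-scaled CPM (log axis) of 18 maturation, NF-kB and cytokine genes in each of the 3 t0 and 3 DMSO libraries; each dot is a library and the black line is the group mean. Cd80, Cd86 and Nfkb1 stay near the same level while Cd40, Ccr7, Fscn1, Relb and Il12b separate without overlap.

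Almost all measured parts of the NF-kB system rose. Of 31 genes, 28 rose, Ripk2 (-0.69) fell and Nfkb1 (0.20) and Chuk (0.13) did not pass; with scaling by library totals 24 rose. The count stands against 27.2% of all genes that rose, with a median of 1.14 against 0.087. Relb, the subunit of the non-canonical arm, was at 42.6, 44.6 and 38.5 CPM at t0 and 321, 387 and 330.2 CPM in DMSO. All DMSO libraries lay far above t0 (3.05 ± 0.12). Nfkb1, which encodes p50 and its precursor, was at 162, 189 and 176 CPM at t0 and 213, 213 and 177 CPM in DMSO; the groups overlapped (0.20 ± 0.14, adjusted p = 0.27). The other subunits rose: Nfkb2 (2.31) of the non-canonical arm, and Rel (1.98) and Rela (0.95) of the canonical arm. All 12 genes listed as inhibitors and feedback genes rose. Among them were Tnfaip3 (2.56), whose product A20 removes ubiquitin chains from signalling complexes, and the IkB alpha gene Nfkbia (2.03). Bcl3 (2.17), Nfkbiz (1.97), Nfkbib (1.51), Nfkbie (1.43) and Tnip1 (0.91) were others. Tnfaip3 itself was at 33.3, 31.7 and 35.3 CPM at t0 and 184, 213 and 195 CPM in DMSO, so its level differed between groups by more than it differed within them. Of 14 kinases and adaptors 12 rose. Map3k14 (1.78) encodes NIK, and Traf3 (1.29), Traf2 (0.92), Birc2 (2.23) and Birc3 (2.06) encode the complex that marks NIK for destruction; both kinds of gene rose. Tnip1 lost its call with all 24 libraries. Traf1, an adaptor of TNF receptors, was at 41.3, 48.8 and 42.5 CPM at t0 and 336, 413 and 419.6 CPM in DMSO and rose by 3.14 ± 0.13.

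The promoters of some of these genes are shown because members of the family rose together. Those shown all hold a match within the printed bases, which not every gene of the family did. Each line gives the 110 bases before the annotated start in RefSeq (GRCm38.p6), 5′ to 3′ on the strand of the gene, with matches to the NF-kB consensus in capitals; positions are chr19:46304627-46304736 (plus strand) for Nfkb2, chr12:55492648-55492757 (minus strand) for Nfkbia, chr11:23770970-23771079 (minus strand) for Rel and chr11:54962941-54963050 (minus strand) for Tnip1.
Nfkb2: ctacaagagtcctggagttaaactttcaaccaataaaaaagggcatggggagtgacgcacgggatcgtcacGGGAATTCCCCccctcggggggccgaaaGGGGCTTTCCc
Nfkbia: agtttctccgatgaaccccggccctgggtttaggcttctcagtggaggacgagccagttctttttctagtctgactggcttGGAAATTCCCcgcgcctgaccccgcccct
Rel: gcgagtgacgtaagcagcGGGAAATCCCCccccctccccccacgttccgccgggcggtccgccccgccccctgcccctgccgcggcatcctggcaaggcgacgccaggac
Tnip1: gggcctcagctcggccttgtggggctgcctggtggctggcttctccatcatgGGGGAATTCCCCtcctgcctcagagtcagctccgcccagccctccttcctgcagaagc
The consensus was searched on both strands in windows from 250 bases before to 50 after the start. It was found in 8 of the 10 inhibitor and feedback genes with a RefSeq window (Bcl3, Cyld, Nfkbia, Nfkbid, Nfkbie, Tnfaip3, Tnip1 and Tnip3, 80%). It was also found in 2 of 3 subunit genes (Nfkb2 and Rel) and in 9.55% of all 27025 genes with a window. A gene counted when any of its windows held a match. Matches can overlap one another, and a match describes the letters of the window only.

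Cytokine genes were divided. Of 17 tested 7 rose, 3 fell (Osm, Csf1 and Il33) and 7 did not pass; the falls came to 1 without DMSO replicate 1, DMSO replicate 3, t0 replicate 2 or t0 replicate 3, and to 1 with all 24 libraries, where Csf1 and Il33 lost their call. Il12b, the shared chain of IL-12 and IL-23, was at 2.04, 3.66 and 2.29 CPM at t0 and 122, 174 and 226 CPM in DMSO. It was low in every t0 library and above 100 CPM in every DMSO library (6.03 ± 0.32). Its partner in IL-23, Il23a (0.00), and the IL-27 chain gene Il27 (-0.01) did not pass, whereas Ebi3 (0.86), the other chain of IL-27, rose. Il6 (2.52), Il15 (2.17), Il1b (2.00) and Vegfa (1.42) rose too, and Tnf (-0.18) and Il1a (-0.07) did not pass. Il10 was at 0.0279, 0.0154 and 0 CPM at t0 and 0.0621, 0.0234 and 0.0852 CPM in DMSO, with 3 counts over the t0 group and 11 over the DMSO group, and was not called.

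Among 19 tested chemokine genes 11 rose and 7 fell, beside 27.2% rising and 20.3% falling over all genes. Ccl22, a ligand of CCR4, was at 920.1, 1065 and 881 CPM at t0 and 3974, 5421 and 3397 CPM in DMSO, higher in each DMSO library (2.16 ± 0.29). Ccl17, the other CCR4 ligand, was at 832, 893 and 792 CPM at t0 and 129, 209.8 and 41.4 CPM in DMSO and fell (-2.73 ± 0.78, adjusted p = 0.013), with the lowest value in DMSO replicate 3. The pair of genes for ligands of 1 receptor thus moved in opposite directions. Ccl5 (2.45), Cxcl16 (2.37), Cxcl9 (2.18), Cxcl10 (2.22), Cx3cl1 (2.07), the neutrophil attractants Cxcl1 (3.64), Cxcl3 (2.04) and Cxcl2 (1.54), Ccl24 (3.24) and Cxcl14 (3.71) rose. The monocyte and macrophage attractants Ccl3 (-2.16), Ccl4 (-2.33), Ccl7 (-2.85), Ccl12 (-2.27) and Ccl6 (-1.68) fell. Ccl2 fell as well (-2.17 ± 0.64), but not when DMSO replicate 3 was left out (-2.02, adjusted p = 0.053). Of 16 receptors for chemoattractants 8 rose, with Cx3cr1 at 1.69, 0.787 and 1.21 CPM at t0 and 22.2, 21.7 and 16.4 CPM in DMSO and Cxcr3 (2.72) and Cxcr5 (2.13) beside Ccr7. Ccr1 (-0.64) and Cxcr2 (-1.19) fell, and the inflammatory monocyte receptor Ccr2 (-0.45) did not pass. Neither of these falls, nor that of Ccl6, was called with all 24 libraries, and Ccr2 fell with scaling by library totals (-0.61).

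Several targets of STAT5, the factor that GM-CSF activates, fell. Cish, a feedback inhibitor switched on by STAT5, was at 272, 254 and 261 CPM at t0 and 23, 20.6 and 13.1 CPM in DMSO. Each DMSO library held less than each t0 library (-3.79 ± 0.60, adjusted p = 2.92e-04). Of 12 genes of JAK2 and STAT5 signalling and their targets 4 rose and 6 fell: Osm (-2.16), Ccl17 (-2.73), Socs3 (-1.80), Socs1 (-1.14) and Pparg (-0.81) fell with Cish, the target Socs2 (0.93) rose, and the signalling genes Jak2 (0.77), Stat5a (0.59) and Stat5b (0.55) rose. The targets Pim1 (-0.29) and Irf4 (-0.63) did not pass, and both fell with scaling by library totals (-0.46 and -0.80); Pim1 also fell without DMSO replicate 3 (-0.34) or t0 replicate 2 (-0.41). The shared receptor chain Csf2rb was at 1892, 2044 and 1963 CPM at t0 and 1965, 1921 and 1797 CPM in DMSO (-0.05 ± 0.15, adjusted p = 0.8), with overlap. Reads of Csf2rb and its near copy Csf2rb2 may be split uncertainly. No gene fell among 14 receptors for growth factors and cytokines, and 11 rose. Flt3, the receptor of the ligand that drives DC development, was at 3.42, 4.6 and 4.78 CPM at t0 and 73.1, 94.1 and 102 CPM in DMSO. Kit, the receptor for stem cell factor, was at 14.5, 14.7 and 15.7 CPM at t0 and 78, 96.8 and 126 CPM in DMSO. Both were higher in all DMSO libraries (4.40 ± 0.24 and 2.74 ± 0.25), and Csf3r (1.78) and Csf1r (0.78) rose as well. With all 24 libraries the calls for Pparg and Csf1r were lost.

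Adhesion genes of clustered, immature DCs were among those that fell. Cdh1, which encodes E-cadherin, the adhesion protein that ties cultured DCs into clusters, was at 278, 391 and 414 CPM at t0 and 19.7, 18.3 and 15.4 CPM in DMSO. No DMSO library came near the t0 range (-4.34 ± 0.16, adjusted p = 1.17e-12). Plet1, a surface protein of epithelial progenitors and some DCs, was at 854, 1141 and 995 CPM at t0 and 50.2, 52.8 and 14.6 CPM in DMSO, lowest in DMSO replicate 3 (-4.66 ± 0.65). Epcam (-2.74), the gene Itgae (-5.20) for CD103, which binds E-cadherin, Pecam1 (-1.38) and Itgax (-1.50) also fell; in all, 6 of 14 adhesion genes fell. Itga4 (2.62), Itgb1 (0.76) and Adam8 (0.59) rose, and 5 did not pass, among them the CD11b gene Itgam (-0.11). Pecam1 and Adam8 were not called with all 24 libraries.

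**Figure D3:**
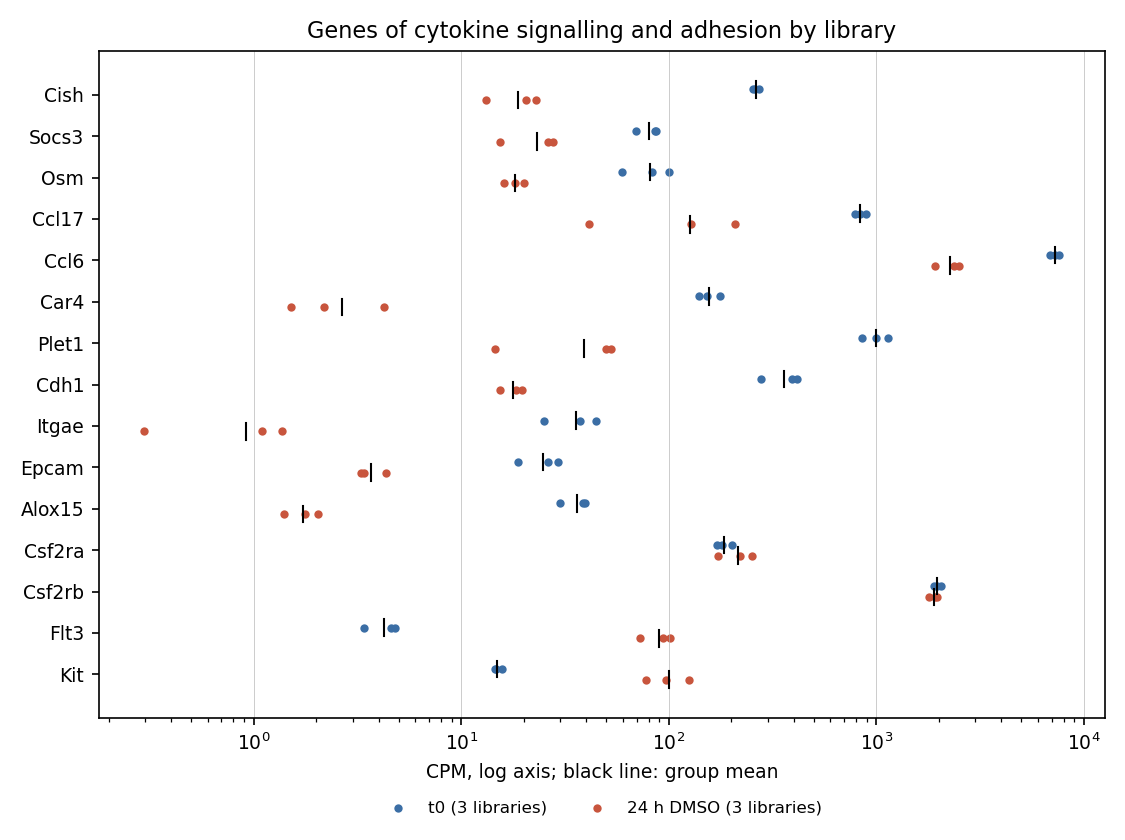
TMM-scaled CPM (log axis) of 15 genes of GM-CSF signalling, chemokines, adhesion and growth factor receptors in each library, with dots for libraries and black lines for group means. Cish, Cdh1, Plet1 and Ccl17 are lower in all 3 DMSO libraries, Flt3 and Kit higher, and the groups overlap for Csf2rb.

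Cell cycle genes fell almost throughout. Of 70 genes 68 fell, against 20.3% of all genes, Rb1 (0.13) did not pass and Rbl2 (0.28), which encodes a pocket protein of resting cells, rose; the call for Rbl2 was lost with scaling by library totals, without a filter and with all 24 libraries. The median was -2.34. All 26 genes of mitosis fell, with a median of -2.92. Top2a, the topoisomerase that untangles chromosomes, was at 268, 300.3 and 347 CPM at t0 and 34.2, 41.6 and 22.7 CPM in DMSO. Cdk1, the kinase that starts mitosis, was at 94.4, 97.8 and 98.9 CPM at t0 and 20.3, 22 and 16.1 CPM in DMSO. Neither gene overlapped between groups (-3.21 ± 0.24 and -2.31 ± 0.13), and transcripts of both stayed detectable in every DMSO library. Cdc25c (-3.47), Ccnb1 (-3.28), Kif11 (-3.11), Cenpf (-3.11), Ccna2 (-3.07), Ttk (-3.06) and Plk1 (-2.94) fell, as did Mki67 (-2.38), the proliferation marker Ki-67. All 26 genes of DNA replication fell as well. Mcm2, part of the helicase that opens DNA, was at 56.4, 76 and 75.4 CPM at t0 and 16.1, 16.8 and 13.1 CPM in DMSO (-2.17 ± 0.13). The nucleotide enzymes Rrm2 (-3.16) and Tk1 (-3.05), the helicase activator Cdc45 (-2.81) and the clamp gene Pcna (-1.01) spanned the range. Of 18 genes of G1 and the E2F family 16 fell, from E2f7 (-3.35), Ccne2 (-2.82) and Mybl2 (-2.73) to the smaller changes of E2f3 (-0.55) and Rbl1 (-0.51). The D cyclins Ccnd2 (-2.14), Ccnd3 (-1.26) and Ccnd1 (-1.22) were lower too. E2f1, E2f2, E2f3 and Cdk6 lost their call with all 24 libraries.

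Inhibitors of the cycle did not move as a block. Of 19 genes 10 rose, 4 fell and 5 did not pass. Cdkn1b, which encodes p27, was at 35.9, 27.8 and 36.2 CPM at t0 and 73.6, 84.8 and 97.3 CPM in DMSO (1.35 ± 0.13), and Cdkn2b (3.32), Cdkn2a (1.87), Btg1 (1.04) and Ccng2 (1.02) rose. Cdkn1a, which encodes p21, was at 369, 426 and 399.8 CPM at t0 and 363, 422 and 382 CPM in DMSO and did not pass (-0.03 ± 0.11), while Cdkn2c (-1.60), Cdkn2d (-1.44) and Trp53 (-0.44) fell. Myc, the growth-promoting factor, was at 56.5, 65.3 and 53.1 CPM at t0 and 22.3, 19.96 and 15.2 CPM in DMSO. Mxd1, which competes with MYC for its partner MAX, was at 49.8, 45.7 and 50.9 CPM at t0 and 230.3, 289 and 327 CPM in DMSO. The pair of genes moved in opposite directions with no overlap in either (-1.60 ± 0.13 and 2.53 ± 0.13).

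**Figure D4:**
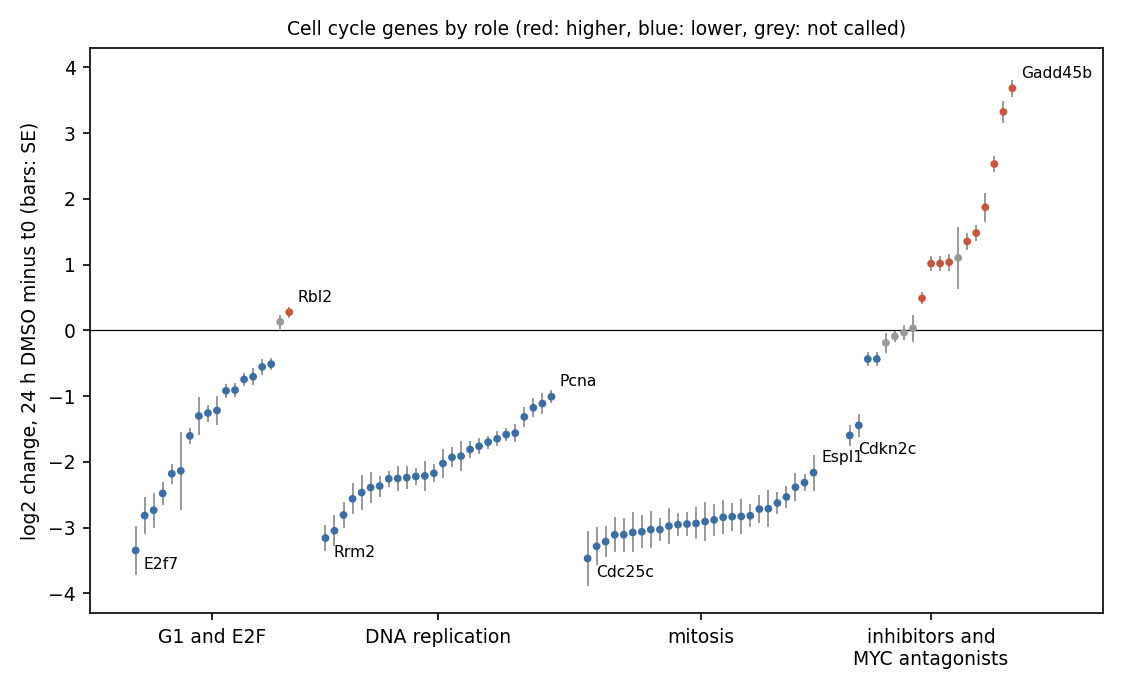
Log2 change ± SE from t0 to DMSO (y axis) of cell cycle genes grouped by role (x axis), with inhibitors and MYC antagonists. All 26 replication and all 26 mitosis genes lie below 0, and inhibitors lie on both sides.

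Promoters of 4 mitosis genes are shown because the mitosis genes fell together. Those shown hold both motifs named next within the printed bases, which not every mitosis gene did. Capitals mark CCAAT and TTTGAA on either strand (ATTGG and TTCAAA on the reverse); TTTGAA is the core of the cell cycle homology region. The windows are the 110 bases before the start in RefSeq (GRCm38.p6), at chr4:118437344-118437453 (minus strand) for Cdc20, chr10:69352913-69353022 (minus strand) for Cdk1, chr2:164769819-164769928 (plus strand) for Ube2c and chr11:99024190-99024299 (minus strand) for Top2a.
Cdc20: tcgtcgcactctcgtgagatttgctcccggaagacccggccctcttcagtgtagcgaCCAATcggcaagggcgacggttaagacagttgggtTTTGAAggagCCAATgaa
Cdk1: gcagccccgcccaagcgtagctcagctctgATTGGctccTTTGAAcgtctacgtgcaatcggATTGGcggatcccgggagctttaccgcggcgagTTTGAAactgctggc
Ube2c: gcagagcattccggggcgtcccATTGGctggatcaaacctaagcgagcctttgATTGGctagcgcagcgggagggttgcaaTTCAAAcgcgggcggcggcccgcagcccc
Top2a: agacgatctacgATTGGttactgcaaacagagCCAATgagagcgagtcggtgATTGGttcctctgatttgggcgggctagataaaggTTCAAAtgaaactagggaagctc
Over the windows from 250 before to 50 after the start, TTTGAA was present in 15 of 20 mitosis genes (75%), 4 of 21 replication genes (19%) and 20.2% of all genes with a window. CCAAT was present in 18 of 20 mitosis genes (90%), 14 of 21 replication genes (66.7%) and 41.1% of all genes with a window. Both were present in 15 mitosis genes, 3 replication genes and 7.97% of all genes with a window. Both lists fell, and their windows differ in these letters, which describes the windows and not any factor.

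Transcription factors of DC identity changed in both directions: 19 of 36 rose, 6 fell and 11 did not pass. Irf8, the factor of DC and cDC1 development, was at 138, 147 and 129 CPM at t0 and 535, 659.97 and 633 CPM in DMSO. Spib, an Ets factor, was at 12.9, 12.8 and 10.2 CPM at t0 and 124, 177 and 137 CPM in DMSO. Both were higher in each DMSO library (2.15 ± 0.10 and 3.61 ± 0.15). The inhibitors of E proteins diverged: Id3 rose by 6.67 ± 0.29, Id1 fell (-2.54 ± 0.21), and Id2 (0.03), the member that DC precursors need, did not pass. Etv3 (2.21), Prdm1 (2.12), Maf (2.29), Batf3 (1.86), Bcl6 (1.14) and Stat3 (1.03) rose, and Klf4 (-1.24), Mycl (-1.38), Ahr (-0.89) and Runx1 (-0.60) fell. The myeloid factors Spi1 (0.06), Cebpa (0.18), Cebpb (0.11) and Irf5 (0.11) did not pass. Immediate early genes rose and fell at shares near those over all genes (27.2% and 20.3%). Among 19 of them Dusp2 (3.10), Nr4a2 (1.99) and Junb (1.03) were in the 6 that rose and Fosb (-2.36), Egr2 (-1.80) and Egr1 (-0.96) in the 4 that fell. Fos was at 71.2, 79.8 and 167 CPM at t0 and 118, 109 and 113 CPM in DMSO, where t0 replicate 3 lay above all other libraries; no call was made, and without that library Fos rose (0.57) and Fosb fell by 1.48 on the log2 scale. Runx1 and Egr1 were not called with all 24 libraries.

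Antigen presentation by MHC class I rose in part: 13 of 20 genes rose, none fell and 7 did not pass. H2-K1 (0.97), H2-D1 (0.96), B2m (0.66), the peptide editor Tapbpl (2.14) and the proteasome activator genes Psme1 (0.92) and Psme2 (1.15) were among the rises; reads of near-identical class I genes may be assigned uncertainly. The MHC class II list gave 6 rises and 4 falls of 16, and 3 rises and 6 falls with scaling by library totals, so it had no stable direction. Within it the peptide exchange genes H2-DMa (-0.92), H2-DMb1 (-0.55) and H2-DMb2 (-1.25) fell. H2-Ob (-1.85) fell too, and H2-Oa did not pass. Of the chain genes, H2-Eb1 (0.554) and H2-Aa (0.415) rose, though H2-Aa was not called with scaling by library totals (0.25). H2-Ab1 was at 2433, 2797 and 2679.9 CPM at t0 and 2384, 2502 and 1801 CPM in DMSO with no call. The asparagine protease gene Lgmn (0.68) rose. The genes of antigen uptake were divided, with 7 of 29 tested rising and 10 falling (4 with all 24 libraries). The shares over all genes were 27.2% rising and 20.3% falling. The lectin genes Mgl2 (-1.99), Clec10a (-1.51) and Mrc1 (-1.15), the Fc receptor gene Fcgr1 (-0.90) and the phosphatidylserine receptor gene Axl (-0.69) fell. The lectin genes Clec4d (2.07), Clec4e (2.07) and Ly75 (1.82), which encodes DEC-205, and the Fc receptor gene Fcgr4 (1.56) rose. Of 20 genes of Toll-like and NOD-like sensing 9 rose, including Tlr1 (2.11), Tlr12 (1.97) and Nod2 (1.61), and 3 fell, namely Tlr4 (-1.09), Nlrp3 (-0.69) and Myd88 (-0.57). Calls for B2m, H2-Aa, Lgmn, H2-DMb1, Clec10a, Fcgr1, Axl and Nlrp3 were lost with all 24 libraries. H2-Ab1 fell with scaling by library totals (-0.41).

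Interferon responses were mixed. Of 27 type I interferon genes 12 rose and 3 fell, and 6 rose and 5 fell with scaling by library totals; when single libraries were left out, between 8 and 15 rose, and the falls came to 1 without DMSO replicate 1 and 0 without t0 replicate 2. Oasl1 (1.51), Rsad2 (1.22), Mx1 (1.19) and Ifit3 (1.16) rose, while Irf7 (0.16), Oasl2 (-0.11) and Rtp4 (-0.07) did not pass. Of 13 type II interferon genes 5 rose and 1 fell. Irf1, a shared target of interferon gamma and NF-kB, was at 34.3, 33.7 and 29.8 CPM at t0 and 262, 314 and 286 CPM in DMSO (3.14 ± 0.11), whereas Igtp (-0.11) and Irgm1 (-0.14) did not pass.

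Genes of lipid synthesis were lower. All 9 genes of fatty acid synthesis fell, with a median of -1.69. Scd2, a desaturase that makes oleate, was at 1557, 1328 and 1339.7 CPM at t0 and 323, 352 and 219 CPM in DMSO, lower in each DMSO library (-2.24 ± 0.15). Fads2 (-2.81), Scd1 (-2.36), Elovl6 (-1.79), the synthase gene Fasn (-1.69) and the regulator Srebf1 (-0.93) followed. Of 23 cholesterol genes 18 fell, Idi1 (1.13) and Pmvk (0.79) rose and 3 did not pass, with a median of -0.61. Fdps (-1.33), Nsdhl (-1.24), Tm7sf2 (-1.11) and Lss (-1.08) were the larger falls, while Hmgcs1 (-0.09) did not pass. The sterol regulatory element was found in the promoter window of 1 of 16 cholesterol genes (Hmgcs1, 6.25%) and in 1.44% of all genes with a window. Of 13 genes of lipid export and storage 9 rose. Apoe, the lipid carrier that macrophages secrete, was at 110.2, 68.3 and 69.3 CPM at t0 and 883, 570.02 and 747 CPM in DMSO, with no overlap (3.15 ± 0.19). Pltp (1.47), Mylip (1.10), Lipa (1.06) and Abca1 (0.64) rose and Abcg1 (-0.49), Lpcat3 (-0.71) and Pparg (-0.81) fell, the last of them not with all 24 libraries.

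Genes of the respiratory chain, the citric acid cycle and ribosome assembly fell more often than they rose. Of 35 nuclear genes of the respiratory chain and citric acid cycle 22 fell and 1 rose, against 20.3% and 27.2% of all genes. Of the 35, 18 to 21 fell when single libraries were left out, and 27 fell with scaling by library totals. The larger falls were Idh3a (-1.36), Fh1 (-1.03), Cycs (-0.81) and Idh2 (-0.77). In contrast, of 12 tested genes encoded by the mitochondrial genome 5 rose and none fell, but none rose without DMSO replicate 3 or without t0 replicate 2, and 3 rose without DMSO replicate 2 or t0 replicate 3. Their summed level was 26314, 16637 and 22781 CPM at t0 and 31040.1, 28091 and 42985 CPM in DMSO, without overlap, with DMSO replicate 3 the highest and t0 replicate 2 the lowest. Of 22 ribosome assembly genes 18 fell and none rose, including Dkc1 (-1.40), Nop56 (-1.05), Nop58 (-1.01) and Fbl (-0.64); 10 fell with all 24 libraries, Fbl not among them. Glycolysis and hypoxia genes gave 6 rises and 5 falls of 29, beside 27.2% rising and 20.3% falling over all genes. They gave 5 rises and 8 falls with scaling by library totals, and 9 falls without DMSO replicate 2. Pfkfb3, which makes the activator of phosphofructokinase, was at 38.2, 42 and 40.9 CPM at t0 and 446, 509 and 617 CPM in DMSO (3.70 ± 0.15), and Adm (3.84) and Vegfa (1.42) rose, but Pfkp (-1.35), Ldha (-0.57), Eno1 (-0.58) and Pgam1 (-0.56) fell. Ldha lost its call with all 24 libraries. Egln3, a target of the hypoxia factor HIF-1, was at 42.4, 17.3 and 12.1 CPM at t0 and 35, 50.4 and 10.3 CPM in DMSO. The libraries of each group differed among themselves more than the groups did.

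**Figure D5:**
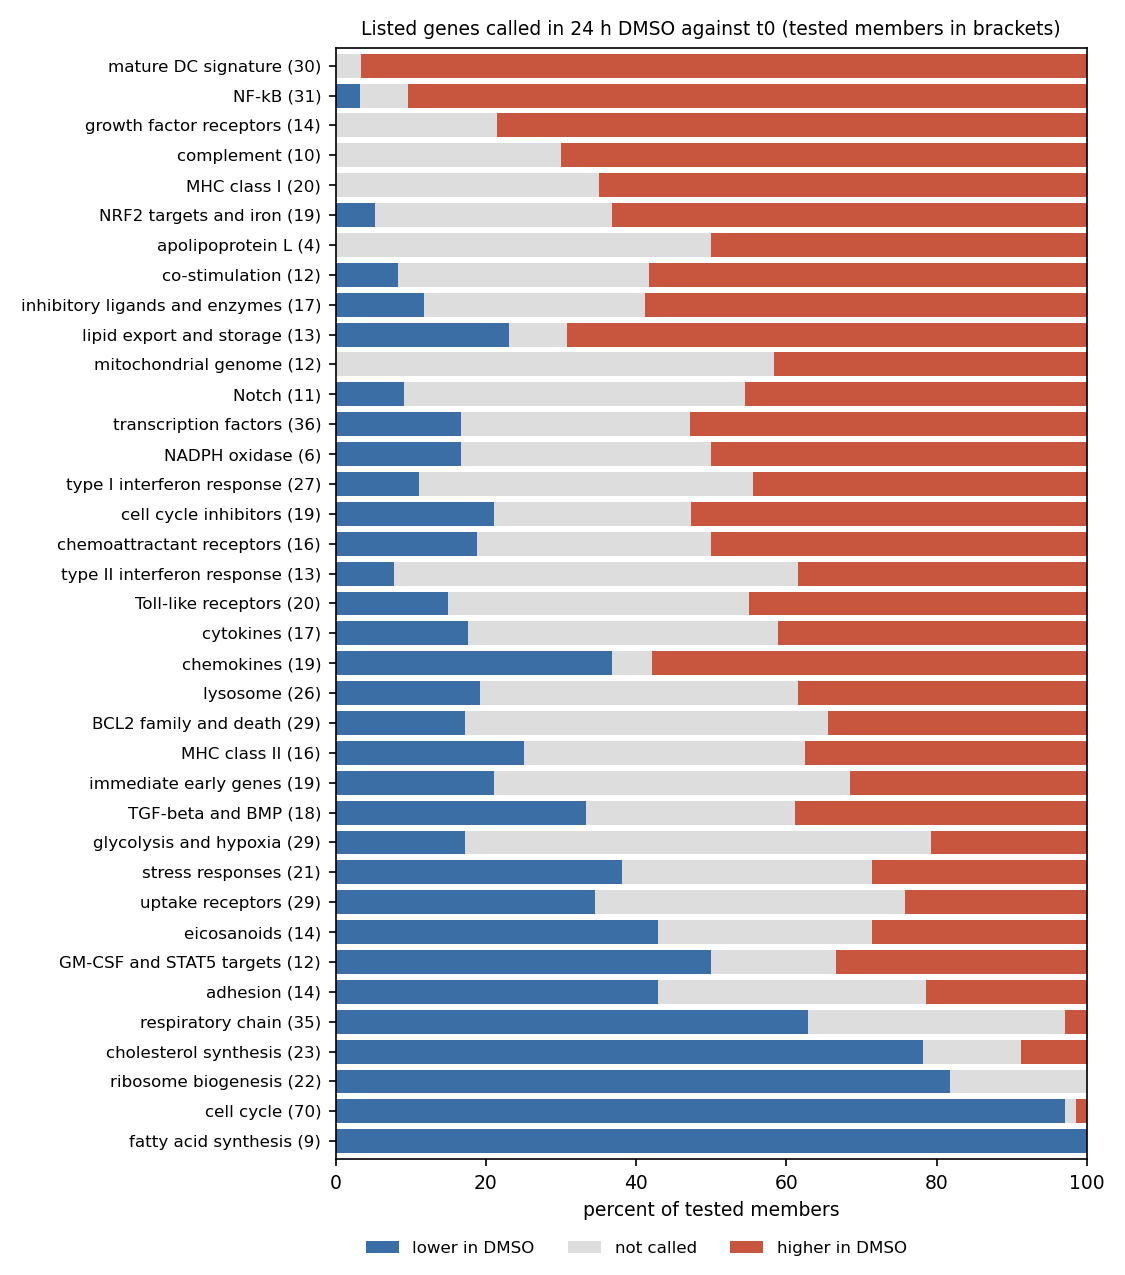
Percent of tested members that fell, were not called or rose (stacked bars, x axis) in each of 37 pathway lists (y axis). Mature DC and NF-kB genes rose for the most part, and cell cycle, fatty acid and cholesterol genes mostly fell. Ribosome biogenesis genes fell or were not called, and in the respiratory chain list 22 fell and 1 rose. Growth factor receptor, MHC class I, complement, mitochondrial genome and apolipoprotein L genes rose or were not called. The other lists hold genes of both directions.

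Of 29 tested genes of death and survival 10 rose, 5 fell and 14 did not pass, beside 27.2% rising and 20.3% falling over all genes, with 8 falling under scaling by library totals, Bax (-0.31) and Bak1 (-0.38) included. Bcl2, the survival gene, was at 20.2, 19.8 and 25.9 CPM at t0 and 5.55, 5.33 and 5.2 CPM in DMSO (-2.03 ± 0.15), and Bid (-1.05) and the BCL-XL gene Bcl2l1 (-0.62) fell. Cflar (1.47), an inhibitor of caspase 8, Mcl1 (0.79), Fas (1.16), Bbc3 (0.96) and Bcl2l11 (0.69) rose, and Bax (-0.15) and Bak1 (-0.21) did not pass.

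Markers of cells that the cultures could also hold were low for most lineages. Neutrophil markers summed to 840.4 to 947.9 CPM at t0 and 772.7 to 968.6 CPM in DMSO, with overlap. Of 16 neutrophil markers 4 rose and 3 fell, or 1 without t0 replicate 3, beside 27.2% rising and 20.3% falling over all genes. Eosinophil markers summed to 99.9 to 109 CPM at t0 and 42.6 to 48 CPM in DMSO, without overlap, and 4 of 6 fell, or 2 without DMSO replicate 1 or without t0 replicate 3. B cell markers stayed below 10 CPM in sum, at 2.67 to 4.63 CPM and 4.47 to 9.31 CPM. T and NK cell markers went from 2.51 to 2.68 CPM to 5.77 to 6.91 CPM, carried by Cd8a, which some DCs also express, and 6 of 10 were too low to test. Mast cell and basophil markers went from 42.8 to 60.2 CPM to 94.3 to 149 CPM, carried by Kit, while Hdc (-1.80) and Gata2 (-1.18) fell. Stem and progenitor markers went from 69.5 to 91.7 CPM to 129.7 to 201.3 CPM through Kit and Sox4 (2.84), while Cd34 (-2.71) and Myb (-1.38) fell. Erythroid and megakaryocyte markers went from 20.1 to 21.3 CPM to 64.1 to 84.4 CPM through the platelet chemokine gene Pf4 (2.14). Stromal markers overlapped, at 12.6 to 14.1 CPM and 5.47 to 14 CPM, as did osteoclast markers, at 225 to 270.1 CPM and 247 to 262 CPM, and plasmacytoid DC markers, at 32.1 to 38.3 CPM and 28.2 to 34.5 CPM. Hdc, Gata2 and Myb were not called with all 24 libraries. The same fit lost the falls of the eosinophil genes Siglecf, Prg2 and Prg3. It also lost all 3 neutrophil falls (Elane, Prtn3 and Cxcr2) and the neutrophil rises of Camp, Lcn2 and Ltf.

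The largest single changes were chosen by size among called protein-coding genes with at least 10 CPM in either group. Rises were led by Scube3, a secreted EGF-like protein, with 1 count over the 3 t0 libraries and 4349 over the 3 DMSO libraries (a ratio of 3688 after scaling, with a 95% counting interval of 661 to 145682). The apolipoprotein L genes Apol10b (8.46) and Apol7c (7.74) came next, with Apol7c at 10.1, 12.4 and 8.47 CPM at t0 and 1715, 2528 and 2353 CPM in DMSO; near-identical copies in the Apol and Cyp4a families make the assignment of reads uncertain. Oprd1 (6.86), the delta opioid receptor, Synpo2 (6.56), Mrc2 (6.25), Plekhs1 (6.09), Aif1l (5.73), Nptx2 (5.53) and Scube1 (5.02) completed the 12 with Id3 and Il12b. Falls were led by Cyp4a12a, a fatty acid hydroxylase, at 19, 11.2 and 14.4 CPM at t0 and 0.0869, 0.129 and 0 CPM in DMSO (-7.45 ± 0.63). Car4 (-5.84), Cd300e (-5.48), Itgae (-5.20), Klrb1f (-5.10), the connexin gene Gja5 (-5.05), Plet1 (-4.66), the lipid transporter gene Mfsd2a (-4.65), Cdh17 (-4.60), Sept3 (-4.60), Nanos1 (-4.50) and Alox15 (-4.39) followed. In CPM, the falls were largest for Ccl6 (-1.68), the elastase gene Mmp12 (-0.95), the osteopontin gene Spp1 (-1.61), Lgals3 (-0.63), Scd2, Plet1, Ccl17, Itgax, Mgl2 and Ly6e (-0.77). The gains were largest for Lyz2 (0.51; not called with scaling by library totals), Actb (0.59), Tmsb4x (0.59), Ccl22, Ftl1 (0.54), mt-Cytb, Fscn1, Fth1, Apol7c and mt-Nd5, of which mt-Cytb and mt-Nd5 were not called without DMSO replicate 3 (0.68 and 0.64) or without t0 replicate 2 (0.65 and 0.72). Among the fits without 1 library, Fth1 was called only without DMSO replicate 2 (0.39 to 0.50 in the others), and it was not called with scaling by library totals (0.31) or by median of ratios (0.43). Ccl6, Lgals3, Ly6e, Lyz2 and Fth1 lost their call with all 24 libraries.

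A few genes went from almost no counts to clear expression. With at most 3 counts over the 3 t0 libraries and at least 1 CPM in DMSO, 11 genes qualified, all protein coding. After Scube3 came Tead2, a partner of YAP, with 0 and 652 counts, at least 184-fold higher against 3 counts over the t0 group. Wfdc13 had 2 and 486 counts (ratio 206, interval 56.7 to 1706), St6galnac2 3 and 401 (ratio 113, interval 38.5 to 552) and the imprinted gene Mest 3 and 431 (ratio 122, interval 41.4 to 593). Mest was uneven, at 0.584, 1.29 and 5.84 CPM in the DMSO libraries. The reverse pattern held for 3 genes, none of them protein coding: Gm34907 went from 630 counts to 1 (743-fold lower, interval 133 to 29394), Gimap1os from 224 to 0 (at least 88.1-fold lower) and Gm43674 from 223 to 0 (at least 87.7-fold lower).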

How the data were processed

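Strand-specific libraries were made from polyadenylated RNA. The authors deposited raw gene counts; per the submitters' processing notes the tools were STAR 2.7.3a, HTSeq 0.12.4 and DESeq2 1.30.1 with genome GRCm39, with no annotation release or strand setting given. Lines that name no gene held 10.98 to 14.1% of counts and were left out. Symbols were taken by identifier from GENCODE M21 (52133 of 55414 gene lines), without coordinates. Promoter windows are RefSeq GRCm38.p6.

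The deposited counts of 15 GM-CSF libraries in 5 groups were fitted with edgeR 4.0.16 (R 4.3.3; TMM, filterByExpr, robust quasi-likelihood), and DMSO was contrasted with t0. A gene was called at adjusted p below 0.05 over 16152 genes; the script was tested on simulated data. Named genes were members of 37 pathway and 13 marker lists, the 12 largest changes each way among called protein-coding genes with at least 10 CPM in either group and no overlap, the 10 largest gains and losses in CPM, and genes with at most 3 counts in 1 group and at least 1 CPM in the other. Some list members are counted but not reported here by name. Members and lists were chosen with earlier results of these data known. The 15 alternatives covered scaling, filters, DESeq2 1.42.0, the libraries fitted, a replicate block, a 2-fold minimum and leaving out each library.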

Additional observations from a re-analysis of the deposited data

How the results depend on the processing

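A 2-fold minimum left 3228 called genes (1950 higher, 1278 lower). Fitting all 24 libraries gave 3226 higher and 1920 lower. Other counts lay within 1.5 times those of the report: 7635 with DESeq2's size factors, 7720 with library totals (3186 higher, 4534 lower), 7600 without a filter on low counts, 5491 with at least 10 CPM in 3 libraries, 8033 with the 6 compared libraries alone (4057 higher, 3976 lower) and 7811 with DESeq2. Leaving out single libraries gave 6541 to 7021 called genes, 3787 to 4052 higher and 2723 to 3028 lower. Of 830 named genes none reversed; 36 lost their call with library totals, 148 with all 24 libraries and 23 to 40 when a library was left out. With the replicate block 7958 genes were called (4538 higher, 3420 lower). Same-numbered libraries of the 2 groups correlated in their deviations from group means at 0.0745, 0.0475 and 0.0548, against -0.0496 to -0.0104 for different numbers. Such deviations cancel within a group, so the negative values follow in part from the positive ones. Each library correlated best with its own number, a hint from the data and not the design, and the numbers were not taken as pairs. Depth limits genes near 3 counts, and 3 libraries a group limit the precision of every value.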

Other observations

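Of 14 eicosanoid genes 4 rose and 6 fell. Alox5, the first enzyme of leukotriene synthesis, was at 114, 164 and 152 CPM at t0 and 39.95, 41.1 and 26.3 CPM in DMSO (-2.00 ± 0.22), and Lta4h (-1.66), Alox15 (-4.39) and the phospholipase gene Pla2g4a (-0.74) fell too. The inducible cyclooxygenase gene Ptgs2 was at 1.68, 2 and 4.47 CPM at t0 and 5.54, 13.2 and 14 CPM in DMSO (2.00 ± 0.45), Ptges (1.04) and the receptor genes Ptger4 (1.90) and Ptger2 (1.23) rose, and the constitutive enzyme gene Ptgs1 (-1.53) fell. With all 24 libraries 2 rose and 3 fell, as Ptgs2, Ptges, Ptgs1, Pla2g4a and Alox5ap lost their call.

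Of 15 genes of the unfolded protein and integrated stress responses 4 rose and 7 fell. Phgdh, the first enzyme of serine synthesis, was at 24.1, 31.8 and 27.8 CPM at t0 and 3.6, 4.43 and 2.94 CPM in DMSO (-2.92 ± 0.27), and Psat1 (-1.56), Asns (-0.90) and Xbp1 (-1.19) fell as well. Ddit4 (2.14), Dnajb9 (0.67) and Herpud1 (0.54) rose, the last of them not with all 24 libraries, and Hspa5 (0.03) and Ddit3 (0.20) did not pass. The inducible heat shock genes Hspa1a (3.31) and Hspa1b (3.27), which are near copies, rose. Of 19 NRF2 and iron genes 12 rose, among them Slc40a1 (2.64), the iron exporter ferroportin, Gclc (1.97), Slc11a1 (1.66) and Slc7a11 (1.36), while the iron uptake gene Tfrc (-0.75) fell, though not with all 24 libraries.

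The Notch ligand gene Jag1 was at 4.59, 3.9 and 3.97 CPM at t0 and 46.6, 60.2 and 65.7 CPM in DMSO (3.79 ± 0.18) and Dll1 (2.03) rose, while the receptor gene Notch1 (-0.51) fell, again not with all 24 libraries. Genes of TGF-beta signalling had no stable direction. Of 18, 7 rose and 6 fell, beside 27.2% rising and 20.3% falling over all genes, and 6 rose and 7 fell with scaling by library totals. Single members moved far. Itgb8, the integrin chain that activates TGF-beta, was at 0.0977, 0.108 and 0 CPM at t0 and 4.94, 6.26 and 11.1 CPM in DMSO (6.68 ± 0.52). Smad3 (2.50) and Smad6 (2.20) rose, and Tgfb3 (-3.17) and Inhba (-1.54) fell. Of the phagocyte oxidase, Cybb (0.76), Ncf1 (0.96) and Ncf4 (0.67) rose.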
